A study of Homo sapiens with 4 samples.

Results

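Heat shock proteins and chaperones were followed across 4 Illumina BeadChip expression arrays of macrophages made from THP-1, a cell line established from a human acute monocytic leukemia that grows as monocyte-like cells. The genes were taken by symbol: HSP70 (HSPA), HSP110 (HSPH and its relatives), HSP90, HSP60 (HSPD) and HSP10 (HSPE), the CCT chaperonin subunits, the J-domain proteins (DNAJA, DNAJB and DNAJC), the BAG cochaperones and the small heat shock proteins (HSPB). They made up 133 of 47228 probes, and 86 of the 20045 genes that carried a single symbol. A further 6 probes of 3 pseudogenes and 2 probes of 1 read-through locus were left out.

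The groups were M1 macrophages made with interferon-gamma and lipopolysaccharide (LPS), M2a macrophages made with interleukin-4 (IL-4), M2c macrophages made with interleukin-10 (IL-10), and the M0 macrophages from which all of them were derived. Each group was 1 array of total RNA. With 1 array per group no difference here has a replicate check, no test was run and no p-value is given, and culture, RNA preparation and array cannot be told apart from the polarising treatment. All groups are THP-1 derivatives, so they model macrophages through a leukemia line. The sources used here state neither doses and exposure times nor the agent that turned the monocytic cells into macrophages.

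Chaperones bind unfolded or partly folded proteins and help them fold, assemble, cross membranes or be degraded. HSP70 proteins work in cycles of ATP hydrolysis, started by J-domain proteins and reset by nucleotide exchange factors such as HSP110 and BAG proteins, while HSP90 acts on later, near-native clients and the chaperonins HSP60 and CCT enclose their clients in a chamber. Each compartment has its own set: HSPA8 and HSPA1A in the cytosol, HSPA9 with HSPD1 in mitochondria, and HSPA5 with HSP90B1 in the endoplasmic reticulum (ER). Heat shock factor 1 raises the cytosolic set under protein stress, and the unfolded protein response raises the ER set, which in macrophages also serves the folding of secreted and surface proteins.

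The arrays differed little in depth of detection. Between 27.4% (M1) and 31.4% (M0) of probes were detected, where detected means a detection p-value below 0.01 against the negative-control beads. All 9 monocyte and macrophage markers on the array were detected on all 4 arrays, with summed normalized intensities of 59300 on M1, 73270 on M2a, 64010 on M2c and 80360 on M0. Of the markers of other cells, none of 4 epithelial, 3 fibroblast, 2 erythroid and 2 endothelial genes was detected on any array. CD2, of 3 T cell genes, was detected on M1 alone, and CD79A, of 2 B cell genes, on M0 alone. The part of these marker differences in the results was not tested. Fewer cells with a transcript and less of it per cell cannot be told apart in such bulk RNA.

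Of the 86 chaperone genes 66 (76.7%) were detected on at least 1 array, 50 of them on all 4 arrays, against 51.9% of all genes on at least 1 array. The number detected was 54 on M1, 60 on M2a, 61 on M2c and 64 on M0. Over all 20045 genes it was 8316 on M1, 9117 on M2a, 8935 on M2c and 9416 on M0, likewise lowest on M1 and highest on M0. All HSP110, HSP90, HSP60, HSP10 and DNAJA genes were detected, along with 10 of 12 HSP70, 8 of 9 CCT, 10 of 12 DNAJB, 20 of 28 DNAJC and 5 of 6 BAG genes. The small heat shock proteins were the exception: HSPB1, a holdase that keeps unfolding proteins soluble, was detected everywhere, and HSPB2, HSPB3, HSPB6, HSPB7, HSPB8 and HSPB9 on no array. The related lens and muscle proteins CRYAA and CRYAB were likewise not detected. The other 14 undetected members were BAG1, CCT8L2, DNAJB7, DNAJB13, DNAJC2, DNAJC6, DNAJC11, DNAJC12, DNAJC16, DNAJC19, DNAJC21, DNAJC22, HSPA12A and HSPA12B, and nothing is said of them below.

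A gene was called higher or lower where its normalized value differed at least 2-fold between 2 arrays (1.0 on the log2 scale) and it was detected on at least 1 of them. Values are normalized intensities after background correction, which has an added offset that pulls dim genes together. An intensity depends on the probe as well as on the transcript, so values are compared between arrays and not between genes. Where a gene was undetected on the dimmer array its fold is a lower bound by this main normalization, written "at least". Other ways of processing the values, or another probe, can give a smaller fold.

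In M1 against M0, 66 chaperone genes were tested, of which 7 (10.6%) were higher and 13 (19.7%) lower, and 46 did not pass. Over all 9986 genes tested in that comparison 15.0% were higher and 19.0% lower, so the chaperones as a whole stood near the background. Their median log2 difference was -0.27, against -0.18 for all genes, and the quartiles of the chaperones were -0.69 and 0.36. The families lay on different sides of 0. The split depended on the scaling: with arrays set to a common median of the detected probes, 11 chaperones were higher and 5 lower, and the median of all detected genes moved to 0.12 from -0.17.

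**Figure D1:**
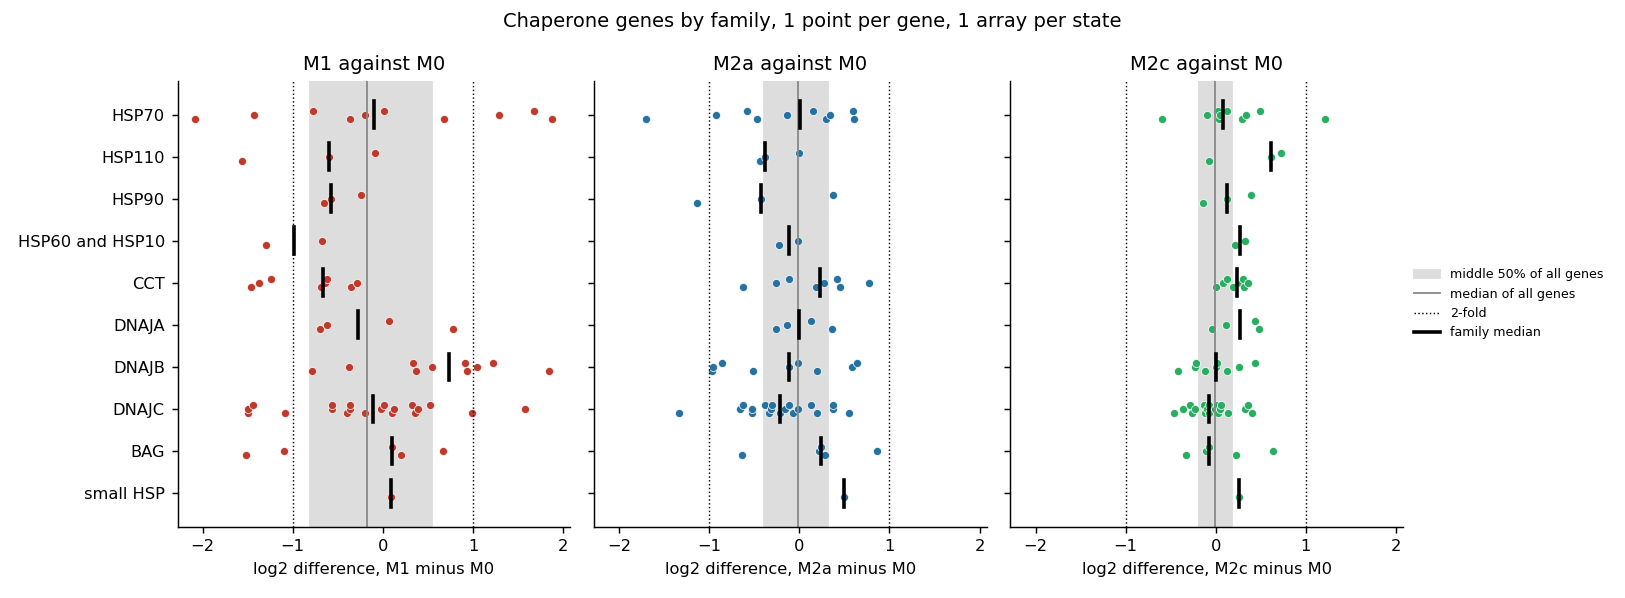
Log2 differences of the detected chaperone genes from M0 on the M1, M2a and M2c arrays, by family, with 1 point per gene, a black bar at each family's median, the grey band over the middle 50% of all genes and dotted lines at 2-fold. On M1 all 8 CCT points lie below 0 (6 of 8 with arrays scaled to a common median of detected probes) and 8 of 10 DNAJB points above it (5 of 10 with a common median of all probes), while on M2c a single point lies past 2-fold.

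The inducible cytosolic HSP70 genes were higher on the M1 array. HSPA1B, an HSP70 that heat shock factor 1 induces, had a normalized intensity of 1943 on M1, 802.9 on M2a, 739.9 on M2c and 527.6 on M0, and was 3.68-fold higher on M1 than on M0 (log2 difference 1.88). Its neighbour HSPA1A, which encodes nearly the same protein, had 1561 on M1, 786.9 on M2a, 810.7 on M2c and 638.6 on M0, a 2.45-fold difference of M1 from M0. HSPA6, a strictly stress-inducible HSP70, had 221.8 on M1, 104.5 on M2a, 160.1 on M2c and 69.01 on M0, and was 3.21-fold higher on M1. All 3 were highest on M1 and lowest on M0 by the main normalization, with the M2a and M2c arrays between. For HSPA6 the order of M1 and M2c depended on the processing. Its M1 minus M2c difference was 0.47 on the log2 scale, and -0.31 to 0.46 over other ways of processing the values. Probes of HSPA1A and HSPA1B can read either gene, and the HSPA6 probe may read its near-identical pseudogene HSPA7, whose own probe was 0.86 higher on M1 and 0.89 higher on M2c on the log2 scale. A second HSPA6 probe was not detected on any array.

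The other HSP70 genes did not share this pattern. HSPA5, the ER chaperone BiP, had 163.5 on M1, 363.6 on M2a, 643.7 on M2c and 690.6 on M0, and its 4.22-fold lower value on M1 (-2.08) was the largest difference of any chaperone from M0 by the main normalization. HSPA14, an HSP70 that works at the ribosome, was not detected on M1 and at least 2.47-fold lower there than on M0 (44.86 against 121.3). HSPA8, the constitutive cytosolic HSP70 and the family's brightest probe, had 7885 on M1, 11470 on M2a, 9817 on M2c and 9061 on M0, and no comparison with M0 passed. Mitochondrial HSPA9 was 0.77 lower on M1 on the log2 scale, HSPA1L 0.68 higher, HSPA2 0.36 lower and the microsomal HSPA13 0.01 higher, none past 2-fold. The 10 detected HSP70 genes thus split evenly, 5 above 0 and 5 below, with a median of -0.09 that turned to 0.33 with a common median of detected probes.

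**Figure D2:**
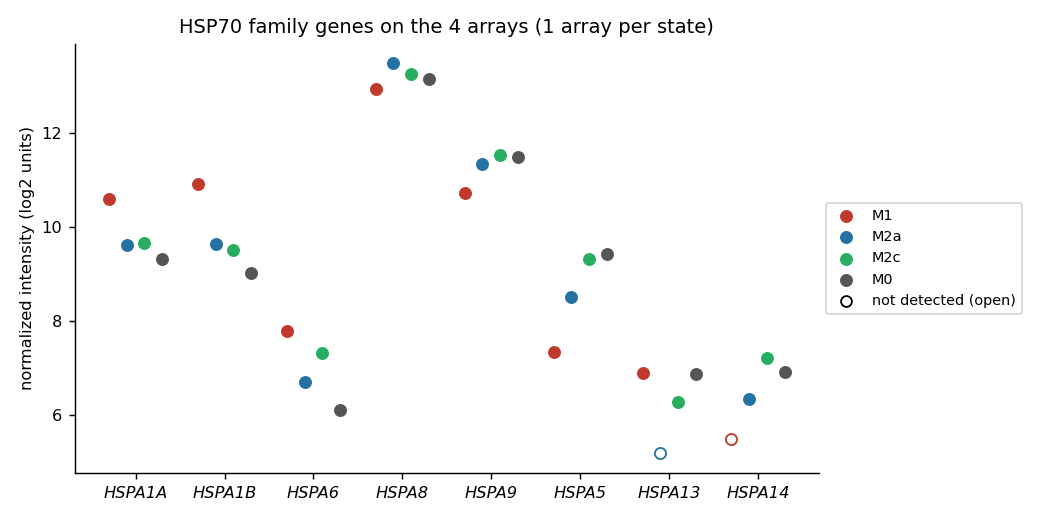
Normalized intensity (log2 units, vertical axis) of 8 HSP70 genes on the M1, M2a, M2c and M0 arrays, 1 point per array, with open points where the probe was not detected. HSPA1A, HSPA1B and HSPA6 are highest on M1 and lowest on M0, whereas HSPA5 is lowest on M1. For HSPA6 the M1 minus M2c difference ranges from -0.31 to 0.46 over other ways of processing the values.

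The promoters of these genes are shown because heat shock factor 1 binds repeats of the short unit GAA and its complement TTC. HSPA1A, HSPA1B, HSPA6 and DNAJB6, a J-domain gene described below, were higher on M1, and HSPA8 is set beside them as a gene with such repeats that did not pass. Each is RefSeq sequence of GRCh38.p14 running from 250 bases before the annotated start of the gene to 50 after it, and 77 of the 86 members had such an entry. A 2-unit core of the heat shock element was searched as GAANNTTC or TTCNNGAA, which covers both strands. The 3-unit element is such a core followed, after 2 free bases, by a further unit in alternating orientation, so every 3-unit match also holds a core. HSPA1A lies at chr6:31815293-31815592 on the plus strand, HSPA1B at chr6:31827488-31827787 plus, HSPA6 at chr1:161524290-161524589 plus, DNAJB6 at chr7:157336754-157337053 plus and HSPA8 at chr11:123062087-123062386 on the minus strand. Capitals mark the 2-unit core in HSPA1A and HSPA1B and the 3-unit element in the other promoters.
HSPA1A: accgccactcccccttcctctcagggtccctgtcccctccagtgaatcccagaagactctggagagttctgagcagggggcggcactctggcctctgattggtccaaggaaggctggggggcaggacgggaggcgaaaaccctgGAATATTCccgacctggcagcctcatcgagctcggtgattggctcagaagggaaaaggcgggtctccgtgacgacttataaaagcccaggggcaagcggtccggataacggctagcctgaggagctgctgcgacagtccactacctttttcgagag
HSPA1B: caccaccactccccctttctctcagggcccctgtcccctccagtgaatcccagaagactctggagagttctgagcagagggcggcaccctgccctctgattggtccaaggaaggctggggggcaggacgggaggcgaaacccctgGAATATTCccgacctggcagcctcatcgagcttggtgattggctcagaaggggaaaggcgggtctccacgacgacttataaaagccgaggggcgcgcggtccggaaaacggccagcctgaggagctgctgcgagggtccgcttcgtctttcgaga
HSPA6: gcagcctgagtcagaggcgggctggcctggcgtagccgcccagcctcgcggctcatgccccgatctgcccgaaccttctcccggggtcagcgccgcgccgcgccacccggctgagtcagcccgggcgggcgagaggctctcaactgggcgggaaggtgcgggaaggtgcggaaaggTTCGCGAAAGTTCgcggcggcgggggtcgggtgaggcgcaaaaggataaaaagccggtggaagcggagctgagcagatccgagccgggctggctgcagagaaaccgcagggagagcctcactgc
DNAJB6: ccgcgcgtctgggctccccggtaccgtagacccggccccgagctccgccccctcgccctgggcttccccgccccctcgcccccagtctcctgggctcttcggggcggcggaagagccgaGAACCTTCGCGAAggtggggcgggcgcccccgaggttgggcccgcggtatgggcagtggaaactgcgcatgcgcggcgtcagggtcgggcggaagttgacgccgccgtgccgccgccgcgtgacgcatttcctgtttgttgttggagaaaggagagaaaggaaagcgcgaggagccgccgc
HSPA8: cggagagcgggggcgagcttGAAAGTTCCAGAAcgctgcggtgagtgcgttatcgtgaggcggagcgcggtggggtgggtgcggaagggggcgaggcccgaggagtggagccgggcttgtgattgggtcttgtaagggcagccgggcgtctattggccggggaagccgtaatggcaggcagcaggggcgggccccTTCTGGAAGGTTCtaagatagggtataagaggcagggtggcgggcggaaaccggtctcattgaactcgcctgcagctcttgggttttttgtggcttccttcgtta
The HSPA1A and HSPA1B cores begin 106 and 105 bases before the start, the HSPA6 element 74, the DNAJB6 element 131, and the HSPA8 elements 230 and 55 bases before it.

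Such matches are descriptions of letters, not binding sites. The 3-unit element was in 4 of 77 member promoters (5.19%: DNAJA1, DNAJB6, HSPA6 and HSPA8), against 0.487% of all 27305 promoters and 0.366% of the 15843 protein-coding ones. The 2-unit core was in 17 member promoters (22.1%), against 13.7% of all. Of the 7 members higher on M1 than on M0, 4 held the core (57.1%: DNAJB6, HSPA1A, HSPA1B and HSPA6), and of the 10 lower ones with a promoter entry 2 did (BAG2 and CCT6B). The promoters of HSPA1A and HSPA1B are nearly the same sequence with the same core, so they are not separate cases. DNAJB5, DNAJB8 and DNAJC5, also higher on M1, held no core, and their promoters are not shown. HSPA8 and DNAJA1, which also hold the element, were not past 2-fold from M0 on any polarised array.

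The heat shock factor 1 target list, which holds 15 members and 6 genes outside the families, was mixed on the M1 array. Of 19 detected genes 3 were higher, HSPA1A, HSPA1B and HSPA6, and 2 lower, HSPA4L and HSPD1, where 15.0% of all genes were higher and 19.0% lower. The list had a median of -0.16 that turned to 0.32 with a common median of detected probes. DNAJA1, a J-domain partner of HSP70 in the cytosol, had 6006 on M1, 3165 on M2a, 4711 on M2c and 3494 on M0, 0.78 higher on M1 on the log2 scale (0.62 to 1.36 over the alternatives). BAG3, which hands clients of HSP70 and small heat shock proteins to autophagy, was 0.67 higher (596.2 on M1 against 375.7 on M0). DNAJB1, the best known stress-inducible J-domain protein, was 0.38 lower on M1 (381.4 against 497.9), and HSPB1 was 0.09 higher (7370 against 6946); none of these passed. Of the factors themselves, the probes of HSF1 and HSF4 were not detected, and HSBP1, which binds heat shock factor 1, was 0.97 lower on M1 than on M0 and did not pass.

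The CCT chaperonin lay below M0 on the M1 array. CCT is a ring of related subunits that folds actin and tubulin. All 8 detected CCT genes were below 0 in M1 against M0, with a median of -0.67 and 3 past 2-fold. Of all 9986 genes tested 5721 were below 0, and 19.0% were lower by at least 2-fold. With a common median of detected probes the CCT median was -0.43 and 6 of 8 were below 0. CCT6A had 394.9 on M1, 778.7 on M2a, 932 on M2c and 934.4 on M0, a 2.37-fold lower value on M1 (-1.24, and -0.98 on its other probe). CCT5 was at least 1.88-fold lower (33.48 and undetected on M1, against 91.98 on M0) and CCT6B, the testis-enriched relative of CCT6A, at least 1.18-fold, so that only CCT6A was past 2-fold with detection on both arrays. The CCT6A probes may also read the pseudogene CCT6P1, whose brightest probe was 1.11 lower on M1. The others lay between -0.29 (CCT2) and -0.69 (CCT4), with CCT3 at -0.62, CCT8 at -0.64 and CCT7, the brightest of the family, at -0.35. The sign of CCT7 depended on the probe, since its other probes, detected on all arrays, gave -0.13 and 0.29. With the mean of all detected probes all 8 genes were below 0.

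Partners of CCT were also looked at. TCP1, the alpha subunit of the ring, lies outside the symbol rule and was 0.74 lower on M1 than on M0 (2005 against 3358). Of 10 detected genes among TCP1, prefoldin, which brings clients to CCT, and related proteins, 9 were below 0 with a median of -0.58, where 5721 of all 9986 genes were below 0. The median was -0.34 in the authors' normalized table, where none passed, and -0.09 with a common median of detected probes, where 8 of 10 were below 0 and 1 passed. By the main normalization 2 passed 2-fold: MKKS, a chaperonin-like protein that helps assemble a ciliary trafficking complex, at least 2.96-fold lower on M1 (37.38 and undetected there, against 145.0 on M0), and PDCL3, a phosducin-like regulator of CCT (-1.04).

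Of mitochondrial HSP60 and its lid HSP10, the gene of HSP60 passed 2-fold on M1. HSPD1, which encodes HSP60, had 2467 on M1, 5205 on M2a, 7574 on M2c and 6055 on M0, and was 2.45-fold lower on M1 than on M0 (-1.30). Its 2 other detected probes gave -0.64 and -0.62, short of 2-fold, the dimmer of them undetected on M1, and the mean of its detected probes did not pass. HSPE1, which encodes HSP10, had 488.4 on M1, 775.8 on M2a, 907.5 on M2c and 782.2 on M0, 0.68 lower on M1 on the log2 scale, which did not pass. These genes lie head to head on chromosome 2 with 105 bases between their RefSeq starts. Both were lowest on M1 and highest on M2c, and both stayed below 0 in M1 against M0 in every alternative for the values (-1.47 to -0.73 for HSPD1, -1.24 to -0.50 for HSPE1). Of the 8 detected mitochondrial members 6 were below 0, with a median of -0.62, or 5 with a median of -0.29 with a common median of detected probes, where 5721 of all 9986 genes were below 0 by the main normalization. Among them HSPA9, the import motor, was at -0.77, DNAJA3, its J-domain partner, at -0.70 and DNAJC15 at -0.57, with DNAJC4 at 0.01 and DNAJC28 at 0.32. The DNAJC28 value is uncertain, since 1 of its 4 probes was bright and the other 3 were not detected on any array.

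**Figure D3:**
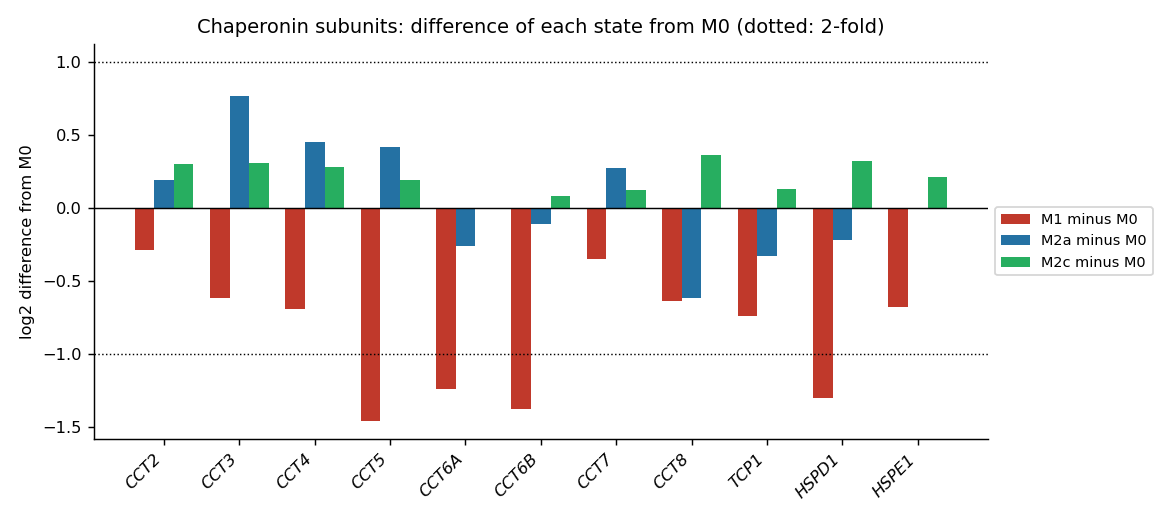
Log2 differences from M0 of the chaperonin subunits on the M1, M2a and M2c arrays (bars, 1 array per state), with dotted lines at 2-fold. All M1 bars lie below 0 (CCT2 and CCT7 cross to above 0 with arrays scaled to a common median of detected probes), and CCT5, CCT6A, CCT6B and HSPD1 pass the lower line.

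Of 10 detected DNAJB genes 8 were above 0 and 3 passed, with a median of 0.73. Of all 9986 genes tested 4261 were above 0 and 15.0% were higher by at least 2-fold. With a common median of all probes the DNAJB median was 0.05 and 5 were above 0. With the mean of all detected probes it was 0.62 and 7 were above 0. DNAJB5, a cytosolic relative of DNAJB1, had 222.6 on M1, 93.28 on M2a, 53.22 on M2c and 62.21 on M0, and was 3.58-fold higher on M1 than on M0 (1.84, and 1.24 on its other detected probe). DNAJB6, which keeps polyglutamine proteins from aggregating, had 2478 on M1, 1389 on M2a, 1219 on M2c and 1207 on M0, a 2.05-fold difference (1.04, and 1.39 on its other probe). DNAJB8, a close relative of DNAJB6 that is best known from testis, was detected on M1 alone (61.72 against 26.57 on M0) and was at least 1.60-fold higher. DNAJB4 (0.93), DNAJB12 (0.91) and DNAJB2 (0.55) were short of 2-fold, and DNAJB11, the soluble J-domain partner of HSPA5 in the ER, was on the other side at -0.79. The 4 DNAJA genes had a median of -0.28, which was 0.02 with a common median of detected probes, and ranged from -0.70 (DNAJA3) to 0.78 (DNAJA1).

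Among the 20 detected DNAJC genes 1 was higher on M1 and 4 lower, with a median of -0.11 (0.17 with a common median of detected probes). In the same comparison with M0, 15.0% of all 9986 genes tested were higher and 19.0% lower. DNAJC5, the cysteine string protein of secretory and synaptic vesicles, had 503.8 on M1, 217.7 on M2a, 131.3 on M2c and 168.5 on M0, a 2.99-fold higher value on M1 than on M0. DNAJC9, a histone chaperone, had 232.8 on M1, 534.6 on M2a, 680.9 on M2c and 658.2 on M0 and was 2.83-fold lower on M1. DNAJC10, a disulfide reductase that helps retrieve misfolded proteins from the ER, was 2.82-fold lower (192 against 542.4, with -1.81 on its other probe). The remaining lower genes were undetected on M1: DNAJC24, needed for the diphthamide modification of elongation factor 2, at least 1.69-fold and DNAJC25, an ER membrane protein, at least 1.39-fold. DNAJC7, DNAJC8 and DNAJC17 varied least of the 50 members detected on all arrays, within 0.24, 0.16 and 0.21 log2 units over the 4 arrays.

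No HSP90 gene passed 2-fold from M0 on M1. In the HSP110 family 1 of 3 detected genes was lower and in the BAG family 2 of 5, where 19.0% of all genes were lower. HSP90AA1, the stress-inducible cytosolic HSP90, had 5073 on M1, 5660 on M2a, 9894 on M2c and 7574 on M0 (-0.58 for M1 against M0). HSP90AB1, the constitutive form, was at -0.24 and HSP90B1, the ER form, at -0.65, for a median of -0.58 that turned to 0.07 with a common median of detected probes. Of the HSP110 proteins, which exchange nucleotide on HSP70, HSPA4L was undetected on M1 and at least 1.54-fold lower than on M0, while HSPH1 was at -0.60 and HSPA4 at -0.09. A dimmer HSPA4 probe, detected on M0 alone, gave -1.14. In the BAG family BAG5, an exchange factor of HSP70, was 2.14-fold lower on M1 (424.1 against 908, with -0.80 on its other probe). BAG2, which restrains the ubiquitin ligase STUB1, was undetected there and at least 1.56-fold lower, and BAG6, a guide for tail-anchored proteins, was at 0.10 and BAG4 at 0.20. The other probe of each, detected on all arrays, gave 0.755 for BAG6 and -0.535 for BAG4, so the sign of BAG4 depended on the probe.

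Among 20 detected cochaperones outside the symbol rule, 1 was higher and 1 lower on M1, with a median of -0.21. Of all genes 15.0% were higher and 19.0% lower. With a common median of detected probes 2 were higher and 1 lower (median 0.01), and with one of all probes 1 was higher and 7 lower (median -0.73). HSCB, a mitochondrial J-domain protein of iron-sulfur cluster assembly, was 1.87 higher (459.3 on M1 against 125.6 on M0), and GRPEL2, an exchange factor of HSPA9, was 1.21 lower. Of 10 detected ER and mitochondrial chaperones of other families, among them TRAP1, CALR and CANX, none passed (median -0.39), but 4 were lower with a common median of all probes (median -0.79), and the median was -0.05 with a common median of detected probes.

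Only part of the M1 differences withstood the processing alternatives. Of the 20 genes past 2-fold, 6 stayed past it in every one: CCT6A, DNAJB5, DNAJC9, DNAJC10, HSPA1B and HSPA5. Of the 13 lower genes 7 were undetected on M1, and HSPA14 was the only one of these whose bound reached 2-fold. Over the alternatives for the values HSPA14 ranged from -1.83 to -0.66, so its bound holds for the main normalization only. Another detected probe existed for 6 of the 20 genes, and in all 6 it differed in the same direction. Over all chaperones with another detected probe, past 2-fold or not, 14 of 17 had the same sign in M1 against M0. Signs of smaller differences are therefore less certain.

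**Figure D4:**
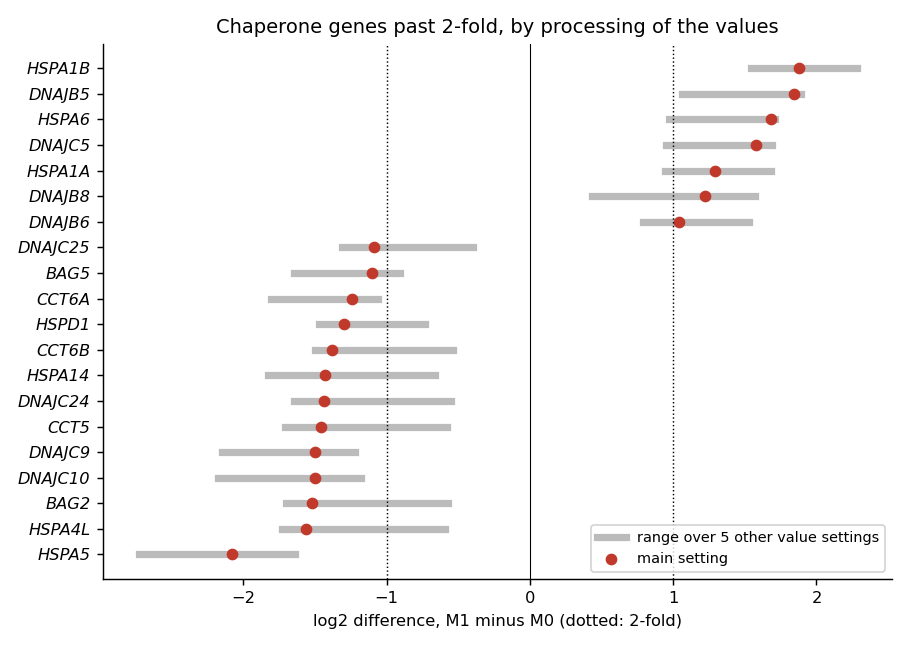
Log2 difference of M1 from M0 for the 20 chaperone genes past 2-fold (red points), with grey bars over the range of 5 other ways of processing the values and dotted lines at 2-fold. No bar crosses 0, and HSPA5 reaches from -2.73 to -1.64.

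In M2a against M0, none of 64 tested chaperones was higher and 3 (4.69%) were lower, where 4.09% of all 9860 genes were higher and 5.04% lower. All 3 lower genes act in the ER. HSPA13, an HSP70 of the microsomal lumen, had 36.47 and was undetected on M2a, against 120 on M1, 78.38 on M2c and 118.8 on M0, at least 2.91-fold lower on M2a than on M0, although its other probe gave -0.50. DNAJC10 had 214.2 on M2a against 542.4 on M0, 2.53-fold lower (-1.34, and -0.70 on its other probe). HSP90B1, the ER form of HSP90, had 4448 on M1, 3162 on M2a, 6359 on M2c and 6984 on M0, 2.21-fold lower on M2a than on M0. DNAJC10 was past 2-fold in every alternative for the values, and HSP90B1 ranged from -1.13 to -0.88 over them. HSPA13 ranged from -1.86 to -0.75, so its bound holds for the main normalization only.

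The remaining ER members lay on the same side. All 11 detected members of the ER list were below 0 in M2a against M0, with a median of -0.93, where the median of all genes was -0.01 and 5030 of 9860 genes were below 0. The list's median was -0.70 in the authors' normalized table and -0.85 and -0.96 under the common-median scalings, with all 11 below 0 in each. With the mean of all detected probes the median was -0.93 and all 11 were below 0. DNAJB9, a J-domain partner of HSPA5 that is a target of the unfolded protein response, had 388.2 on M1, 158.4 on M2a, 421 on M2c and 309.6 on M0 (-0.97 for M2a). DNAJB11 was at -0.96, HSPA5 at -0.93, the membrane protein DNAJB14 at -0.86, DNAJC25 at -0.53, DNAJC3, an inhibitor of the stress kinase PERK, at -0.34, DNAJC1 at -0.21 and DNAJB12 at -0.02. The sign of DNAJB12 depended on the probe, since its other probes detected on all arrays gave 0.226, -0.037 and -0.362. Another DNAJB14 probe, detected on M0 alone, gave -0.101. On M1 the same 11 genes had a median of 0.01 and on M2c of -0.12. The M1 median depended on the scaling: it was 0.07 with a common median of detected probes and -0.67 with one of all probes. In the latter setting 10 of the 11 were below 0. Outside the symbol rule, the ER protein disulfide isomerase PDIA4 was 0.94 lower on M2a and the ER exchange factor HYOU1 0.70 lower, while the ER lectin chaperones CALR and CANX were at 0.27 and -0.36; none of these passed.

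**Figure D5:**
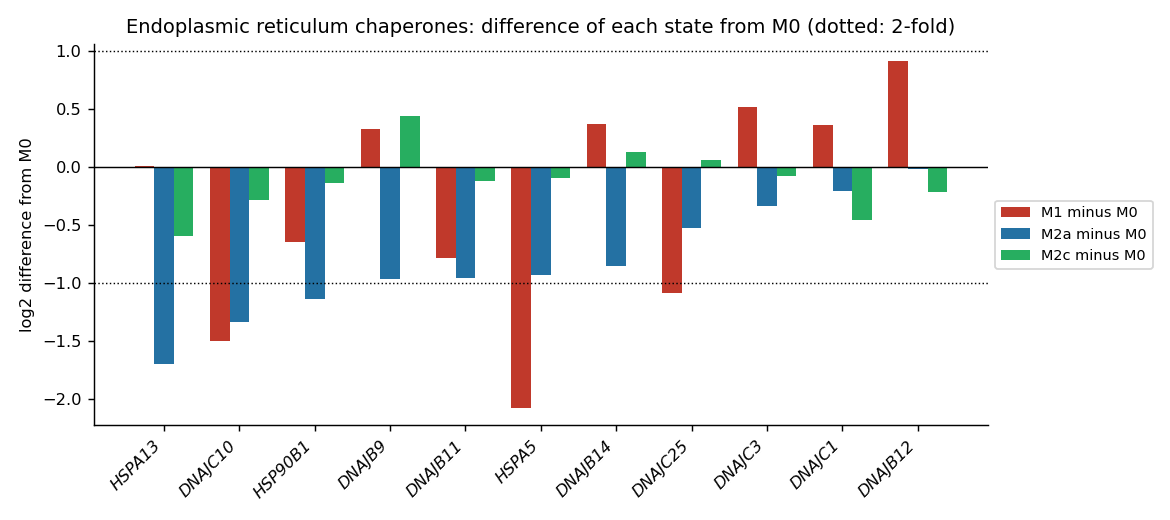
Log2 differences from M0 of the 11 detected ER chaperones on the M1, M2a and M2c arrays (bars, 1 array per state), with dotted lines at 2-fold. All 11 M2a bars lie below 0 (for DNAJB12 the sign depends on the probe), while the M1 bars reach from -2.08 for HSPA5 to 0.91 for DNAJB12.

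The promoters of HSPA5 and HSP90B1 carry the ER stress element, searched on both strands as CCAAT, 9 free bases and CCACG. It contains a CCAAT box and is the element through which the unfolded protein response acts on ER chaperones. They were the only 2 of 77 member promoters with a match (2.6%), against 0.0806% of all promoters. HSPA5 lies at chr9:125241294-125241593 on the minus strand and HSP90B1 at chr12:103930160-103930459 on the plus strand of GRCh38.p14, both from RefSeq, with the element in capitals.
HSPA5: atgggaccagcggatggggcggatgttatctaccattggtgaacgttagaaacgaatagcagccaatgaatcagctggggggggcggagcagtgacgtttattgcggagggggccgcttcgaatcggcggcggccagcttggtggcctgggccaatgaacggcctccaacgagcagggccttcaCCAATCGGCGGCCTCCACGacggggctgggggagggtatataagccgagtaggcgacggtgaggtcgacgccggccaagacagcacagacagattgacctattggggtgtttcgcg
HSP90B1: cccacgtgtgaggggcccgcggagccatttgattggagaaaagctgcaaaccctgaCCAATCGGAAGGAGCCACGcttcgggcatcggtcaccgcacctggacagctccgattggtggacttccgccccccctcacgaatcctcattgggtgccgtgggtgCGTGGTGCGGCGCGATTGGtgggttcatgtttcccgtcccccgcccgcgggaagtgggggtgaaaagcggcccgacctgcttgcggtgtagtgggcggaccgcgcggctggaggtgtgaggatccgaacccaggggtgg
The HSPA5 element begins 66 bases before the start, and the HSP90B1 elements 194 and 89 bases before it, the nearer one on the opposite strand. Of the 12 genes on the ER list 11 had a promoter entry, and among those only HSPA5 and HSP90B1 had a match in this window. The genes with the element did not differ alike: HSPA5 was 4.22-fold lower than M0 on M1 and 0.93 lower on the log2 scale on M2a, and HSP90B1 was 0.65 lower on M1 and 1.14 lower on M2a.

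No tested chaperone outside the ER list passed 2-fold from M0 on the M2a array. The largest positive differences were BAG4 (0.86), which binds HSP70 and death receptors, and the CCT subunit CCT3 (0.77, 2899 on M2a against 1700 on M0). DNAJB1 was 0.64 higher, HSPA1B 0.61, HSPA6 0.60, DNAJB5 0.58 and DNAJC4 0.55. On the negative side DNAJC13, an endosomal J-domain protein, was at -0.66, BAG5 at -0.64, DNAJC28 at -0.63, CCT8 at -0.62 and HSPA14 at -0.58. The CCT subunits were therefore not uniform on M2a, with 5 of 8 above 0. None of the 19 detected heat shock factor 1 targets passed, and their median was 0.30. Among the cochaperones PPID, a cyclophilin that binds HSP90, was 1.40 higher on M2a than on M0 (308.1 against 116.9).

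In M2c against M0, 1 of 64 tested chaperones was higher (1.56%) and none lower, where 0.677% of 9604 genes were higher and 0.448% lower. HSPA6 was 2.32-fold higher on M2c (160.1 against 69.01 on M0). The value was 0.67 to 1.28 on the log2 scale over the alternatives and was short of 2-fold in the authors' normalized table, without background correction and with the larger offset. Next in size were the HSP110 gene HSPA4L (0.72), BAG2 (0.64), the HSP110 gene HSPH1 (0.61) and HSPA13 (-0.60). The further differences, DNAJC5 at -0.36, DNAJB4 at -0.42 and DNAJC1 at -0.46 on the negative side and HSPA1B at 0.49, DNAJA4 at 0.48, DNAJB9 at 0.44, DNAJA1 at 0.43, DNAJC24 at 0.40 and HSP90AA1 at 0.39 on the positive side, were smaller still. DNAJC15 and CCT8 (0.36 each), HSPA1A (0.34), BAG6 (-0.33) and DNAJC5B (0.32) came next.

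Several groups were slightly above M0 on M2c. Of the 19 detected heat shock factor 1 targets 17 were above 0, with a median of 0.26, against -0.01 for all genes, and 1 of them passed. The median was 0.23 in the authors' normalized table and 0.25 and 0.29 with the common-median scalings. Of the 8 CCT genes 7 were above 0 (median 0.24), and HSPD1 and HSPE1 were at 0.32 and 0.21. In other families, 3 of 5 BAG genes were below 0 (median -0.07), as were 4 of 9 DNAJB genes and 11 of 19 DNAJC genes (median -0.07). Over all 64 tested chaperones 40 were above 0 and 24 below, with a median of 0.06, where 4667 of all 9604 genes were above 0. Differences this small are uncertain in sign. Of 16 chaperones with another detected probe, it had the same sign in 10 in M2c against M0. The M1, M2a and M2c comparisons share the M0 array, so a value of M0 that is high or low by error moves all of them.

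The polarised arrays were also set against each other. In M1 against M2a, 64 chaperones were tested, 9 (14.1%) higher and 11 (17.2%) lower, against 15.7% and 18.0% of all genes. CCT3 was 2.61-fold lower on M1 (1110 against 2899 on M2a), and was the only one of these genes past 2-fold in every alternative for the values. CCT5 was at least 2.51-fold, BAG2 at least 1.82-fold and CCT6B at least 1.09-fold lower on M1, where all of them were undetected, and DNAJC9 was 2.30-fold lower. The ER members HSPA13 (at least 2.94-fold) and DNAJB9 (2.45-fold) were higher on M1 than on M2a, as were DNAJB4 (at least 1.93-fold), DNAJB8 (at least 1.51-fold) and HSPA1B (2.42-fold). All 8 CCT genes were below 0 in M1 against M2a, with a median of -1.06, where 5559 of all 9791 genes were below 0, although with a common median of detected probes 7 were and the median was -0.77.

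M1 against M2c gave 7 higher (10.9%) and 14 lower (21.9%) of 64 chaperones, against 16.3% and 21.4% of all genes. DNAJB5 was 4.18-fold higher on M1 (222.6 against 53.22), DNAJC5 3.84-fold and HSPA1B 2.63-fold, with DNAJB4 at least 1.79-fold and DNAJB8 at least 1.40-fold. HSPA4L was at least 2.53-fold, BAG2 at least 2.44-fold, HSPA14 at least 3.03-fold and DNAJC24 at least 2.24-fold lower on M1, all undetected there, and HSPA5 was 3.94-fold lower (163.5 against 643.7). HSPD1 was 3.07-fold lower on M1 than on M2c. Of the 21 genes 8 stayed past 2-fold in every alternative: BAG5, CCT6A, DNAJB5, DNAJC5, DNAJC9, HSPA1B, HSPA5 and HSPD1. BAG5, CCT6A, DNAJC9 and HSPD1 are outside the 5 largest differences and were picked out once their values had been seen.

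Between the IL-4 and IL-10 arrays, M2a against M2c, none of 62 chaperones was higher and 5 (8.06%) were lower, against 4.81% and 6.98% of all genes. DNAJB9 was 2.66-fold lower on M2a (158.4 against 421), past 2-fold in every alternative. HSPA13 was at least 1.92-fold lower, HSPA4L 2.13-fold, DNAJC10 2.07-fold and HSP90B1 2.01-fold. Of these, 4 belong to the ER list, whose median was -0.83 in this comparison with 9 of 11 genes below 0.

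Over the 50 chaperones detected on all 4 arrays, the M1 array held the highest value for 17 genes (34.0%) and the lowest for 22 (44.0%), shares close to those of all 7384 such genes (34.3% and 43.4%). The spread between the highest and lowest array had a median of 0.93 log2 units for chaperones and 0.90 for all genes. HSPA5 (2.08), DNAJB5 (2.06), DNAJC5 (1.94), HSPA1B (1.88) and HSPA6 (1.68) had the widest spreads among them.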

How the data were processed

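Total RNA of 4 THP-1 macrophage groups was measured on 1 bead array each. Per the file headers, the authors deposited 47228 probes as linear intensity with detection p-values, both before and after normalization; GenomeStudio is named in the submitters' processing notes, with no version given. Tested on the values, the second table is the first after quantile normalization (sorted columns within 0.437% of the mean of the sorted signals), and the value table repeats it with 0 cells changed.

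From the non-normalized intensity, background was corrected by normexp with controls inferred from the detection p-values (limma 3.58.1, R 4.3.3, offset 16), followed by quantile normalization and log2. Symbols came from the platform annotation, updated through RefSeq of GRCh38.p14 for 30072 of 30111 probes with 1 symbol. The probe with the highest mean stood for a gene. With 1 array per group no test was possible, and the precision is limited by that number. Detection, the 2-fold rule and bounds are as given above. A bound divides the bright value by the dim array's own value for the gene or by its lowest detected probe, whichever is larger. Bounds were computed in the main normalization only. The members, lists, motifs and rules were chosen with earlier results of these data known. Named are all genes past 2-fold against M0, the largest others up to 20, the brightest of each family, the 5 largest each way between polarised arrays, and listed outsiders that pass. Alternatives were the authors' table, no background correction, an offset of 50, 2 common-median scalings, a detection p-value below 0.05, detection on both arrays, the mean of all detected probes and leaving out M1. The calling procedure was tested on simulated data. Coordinates and promoters are RefSeq's.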

Additional observations from a re-analysis of the deposited data

How the results depend on the processing

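No named chaperone past 2-fold changed direction under the alternatives run, but the counts past 2-fold moved. For M1 against M0 (7 higher, 13 lower) the authors' table gave 4 and 5, no background correction 4 and 5, an offset of 50 gave 6 lower, a common median of detected probes 11 and 5, a common median of all probes, added after seeing the data, 2 higher, and detection on both arrays 6 lower. For M1 against M2a (9 and 11) the authors' table and no background correction each gave 1 and 2, an offset of 50 gave 5 and 6, a common median of detected probes 14 and 6, of all probes 2 and 20, and detection on both arrays 6 lower. For M1 against M2c (7 and 14) the authors' table and no background correction each gave 3 and 6, an offset of 50 gave 4 higher, a common median of detected probes 11 higher, of all probes 3 and 25, and detection on both arrays 7 lower. For M2a against M2c (5 lower) the authors' table and no background correction each gave 1, an offset of 50 gave 2 and the mean of detected probes 3. The 1 gene higher on M2c than on M0 was lost (0) in 3 settings: the authors' table, no background correction and the larger offset. The M2a against M0 counts stayed within 1.5 times. Filters on both arrays test fewer genes by construction, and for the other settings the cause was not tested. Signal near background limits the 7 lower M1 genes that were undetected there. No paired analysis was possible because each group has 1 array, and no replicate could be left out.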
